A study of Mus musculus with 8 samples.

Results

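The region described here is the plus strand of chr7:66483532-66526900 (mm9), the promoter-side stretch of Ube3a that a deletion of the Snrpn to Ube3a span leaves in place. Its members are the 777 plus-strand probes whose start lies between these borders, of 53834 distinct probes on the array and 50496 in the tiled locus. They comprise 394 custom tiling probes and 383 catalogue probes, 45 to 60 bases long, with a median spacing of 49 bp between starts over 43.4 kb. The members were chosen by measured values: the lower border was selected on the level in wild type, and the upper one on the place where the maternal and the paternal deletion part from wild type. Those contrasts are therefore given as a description, with no test. Every probe of the region has a partner on the minus strand over the same bases.

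RNA came from the cerebral cortex of newborn C57BL/6 mice (postnatal day 0), with 8 samples on 1 array each. The maternal deletion (del s-u/+, n = 1) and the paternal deletion (del +/s-u, n = 1) lack the Snrpn-Ube3a span on the chromosome named, and per the series description each had a wild-type littermate. The double deletion (n = 2) carries the maternal span deletion together with a paternal deletion of the Snrpn promoter, designated 0.9 or 4.8. Title and genotype label of both samples name opposite promoter deletions, so the samples are called replicates 1 and 2 and no value is tied to either allele. PolyA RNA (n = 2) was purified from the same RNA as the wild-type samples, whose total RNA (n = 2) is the comparison for all groups. Of the tissue, only this locus carries gene positions, so the cortex label could not be checked against cell type markers. The sources used here do not say whether a sample holds 1 animal or several. The p-values therefore speak only of the spread among these arrays, which may be technical. In whole tissue, fewer cells of a type and less RNA per cell cannot be told apart.

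Ube3a encodes an E3 ubiquitin ligase, an enzyme that attaches ubiquitin to proteins. The gene is imprinted in neurons, where the maternal copy gives the mRNA and the paternal copy is silent, and loss of the maternal copy in humans causes Angelman syndrome. From the paternal chromosome a long antisense RNA, Ube3a-ATS (part of Snhg14), starts near Snrpn and runs through Ube3a on the opposite strand. Total RNA from random priming holds unspliced transcripts, so introns are read along with exons, whereas polyA RNA holds mostly spliced mRNA.

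The Ube3a promoter is shown because the region is the promoter-side stretch of the gene. RefSeq places the gene on the plus strand of GRCm38.p6, another build than that of the array, so the sequence was not placed on the probes. These are the 250 bases before the start, at chr7:59228500-59228749 (GRCm38.p6, plus strand), with GGGCGG on either strand, the core of the GC box bound by Sp1, in capitals.
Ube3a promoter: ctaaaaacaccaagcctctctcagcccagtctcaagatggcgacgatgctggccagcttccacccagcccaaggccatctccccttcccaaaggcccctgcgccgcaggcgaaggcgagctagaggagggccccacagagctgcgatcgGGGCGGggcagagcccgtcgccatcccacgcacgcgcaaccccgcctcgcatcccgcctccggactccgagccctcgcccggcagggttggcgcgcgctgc
It holds 24 CpG and is 70% G or C. The median over 32851 promoter windows of the same length was 6 CpG, and 88% of them had fewer than Ube3a. The motif was found 1 time here, and 32.7% of those windows hold it. A match is a description of the letters and not of binding.

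All levels below are log2 red intensities relative to the 75th percentile, within each array, of the 3338 probes that lie outside the locus, so that a level of 0 is that percentile. On the 6 total RNA arrays 771 to 776 of the 777 probes were well above background by the mark of the scanner software, and 0 to 3 were saturated. On the polyA arrays 531 and 478 were well above background, and 232 were so on neither array, where a level is only an upper bound. The median red intensity of the region was 465 in the maternal deletion, 341 in the paternal deletion, 512 and 642 in the double deletions, 45 and 44 in polyA RNA, and 246 and 229 in wild-type total RNA. Local background was 34 to 38. The number of arrays limits the precision.

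Over the whole region, plus-strand RNA averaged 1.57 in the maternal deletion, 1.35 in the paternal deletion, and 1.64 and 1.92 in the double deletions, against 0.98 and 0.91 in wild type. All 4 deletion arrays lay above both wild types. The double deletions averaged 1.79 ± 0.20 and the wild types 0.95 ± 0.05 over the 775 tested probes (SD, n = 2 each), a rise of 0.84 (SE 0.13, limma, adjusted p = 0.0471). This p sits close to the threshold of 0.05. It was 0.0504 on another scale (outside probes well above background) and 0.39 or 0.403 when wild-type replicate 1 or 2 was left out, with rises of 0.75, 0.87 and 0.80. The double deletion shares its wild-type arrays with the contrasts that drew the border.

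The higher signal was not spread evenly over the region: on each deletion array it took the form of a step. The least-squares change point inside the region fell between the same neighbouring probes, with starts at 66502517 and 66502581, on all 4 deletion arrays. This is 19049 bp from the start of the region and 24.3 kb before its upper border. The double deletions did not draw the borders, and both have the step at this place too. The 4 change points are not independent, since all were taken on changes from the same wild-type mean. The double deletions also carry the maternal span deletion. The division into a first stretch of 19 kb (354 probes, chr7:66483532-66502580) and a last stretch of 24.3 kb (423 probes, chr7:66502581-66526900) was made after the values were seen, so it is described with no test. No annotation of mm9 was used here, so what lies at the step was not looked up.

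In the last stretch the mean level was 1.85 in the maternal deletion, 1.5 in the paternal deletion, and 2.02 and 2.01 in the double deletions, against 0.82 and 0.75 in wild type. Relative to the wild-type mean these are 2.09-fold, 1.64-fold, 2.35-fold and 2.34-fold. On this scale both double deletions gave nearly the same level here, the maternal deletion came next and the paternal deletion was the lowest of the mutants. The order of the mutants depends on the scale. Over the whole region the paternal change was 1.65 on the 75th percentile of all probes, against 0.66 for the maternal one. The double-deletion rise was 1.31 on that scale. With quantile normalization the paternal, maternal and double-deletion changes were 1.23, 0.52 and 1.08. Of the 423 probes, 405 lay above both wild types in the maternal deletion, 402 in the paternal deletion, and 403 and 412 in the double deletions. Over all probes of the tiled locus the shares were 25.7%, 31.8%, 29% and 38.1% on these arrays. The 202 catalogue probes alone averaged 1.59, 1.22, 1.77 and 1.75 in these arrays, against 0.48 and 0.44 in wild type. The 221 custom probes averaged 2.09, 1.75, 2.24 and 2.25, against 1.13 and 1.04.

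In the first stretch the mean level was 1.24 in the maternal deletion, 1.17 in the paternal deletion, and 1.19 and 1.81 in the double deletions, against 1.17 and 1.11 in wild type. The single deletions and double-deletion replicate 1 were within 1.07-fold of wild type. Double-deletion replicate 2 stood apart, at 1.60-fold, with 316 of 354 probes above both wild types, where 38.1% of all locus probes on that array were. In replicate 1 it was 153, where 29% of all were. The rise in replicate 2 set in 1305 bp from the start of the region, between probes at 66484805 and 66484837. The median change on that array was -0.02 below this place and 0.77 above it. Whether this difference between the replicates goes with the promoter deletion each carries or with the sample was not tested.

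**Figure D1:**
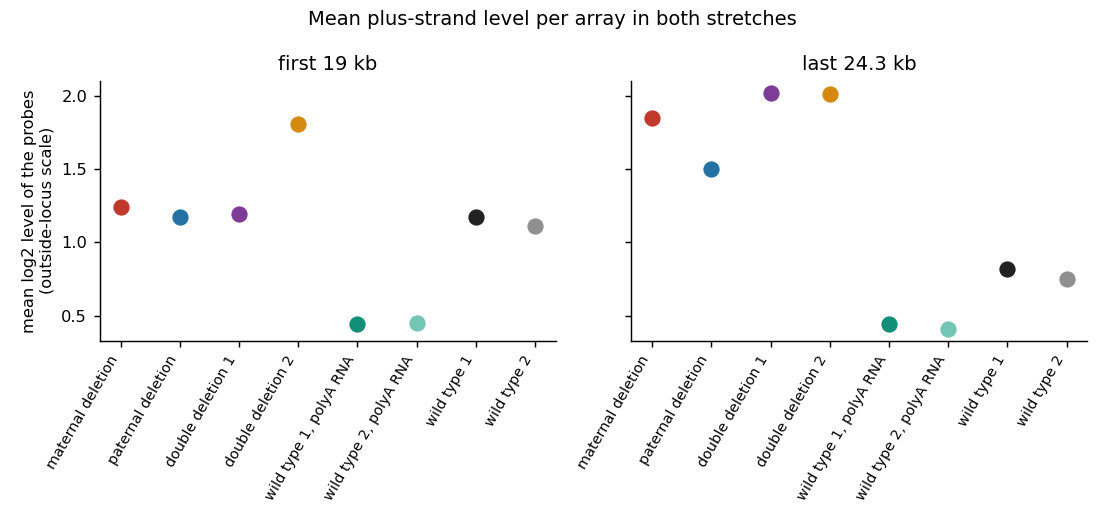
Mean log2 level of the plus-strand probes (outside-locus scale) on each of the 8 arrays, 1 point per array, for the first 19 kb (left) and the last 24.3 kb (right) of the region. In the last 24.3 kb the 4 deletion arrays lie between 1.5 and 2.02, above both wild types at 0.82 and 0.75; in the first 19 kb only double-deletion replicate 2, at 1.81, stands off.

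The step is sharp at the spacing of the probes. Over the 5 probes just below it, the median change from the wild-type mean was 0.08 in the maternal deletion, 0.08 in the paternal deletion, 0.04 in double-deletion replicate 1 and 0.78 in replicate 2. Over the 5 probes just above it, the median changes were 1.16, 0.79, 1.38 and 1.63 in the same arrays. The step needs no scale between arrays. The last stretch minus the first was 0.61 in the maternal deletion, 0.33 in the paternal deletion, and 0.83 and 0.20 in the double deletions, against -0.35 in both wild types. All 4 deletion arrays lay above both wild types in this difference. Its sign within 1 array has no reading, since the stretches hold different probes and probes differ in their response.

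**Figure D2:**
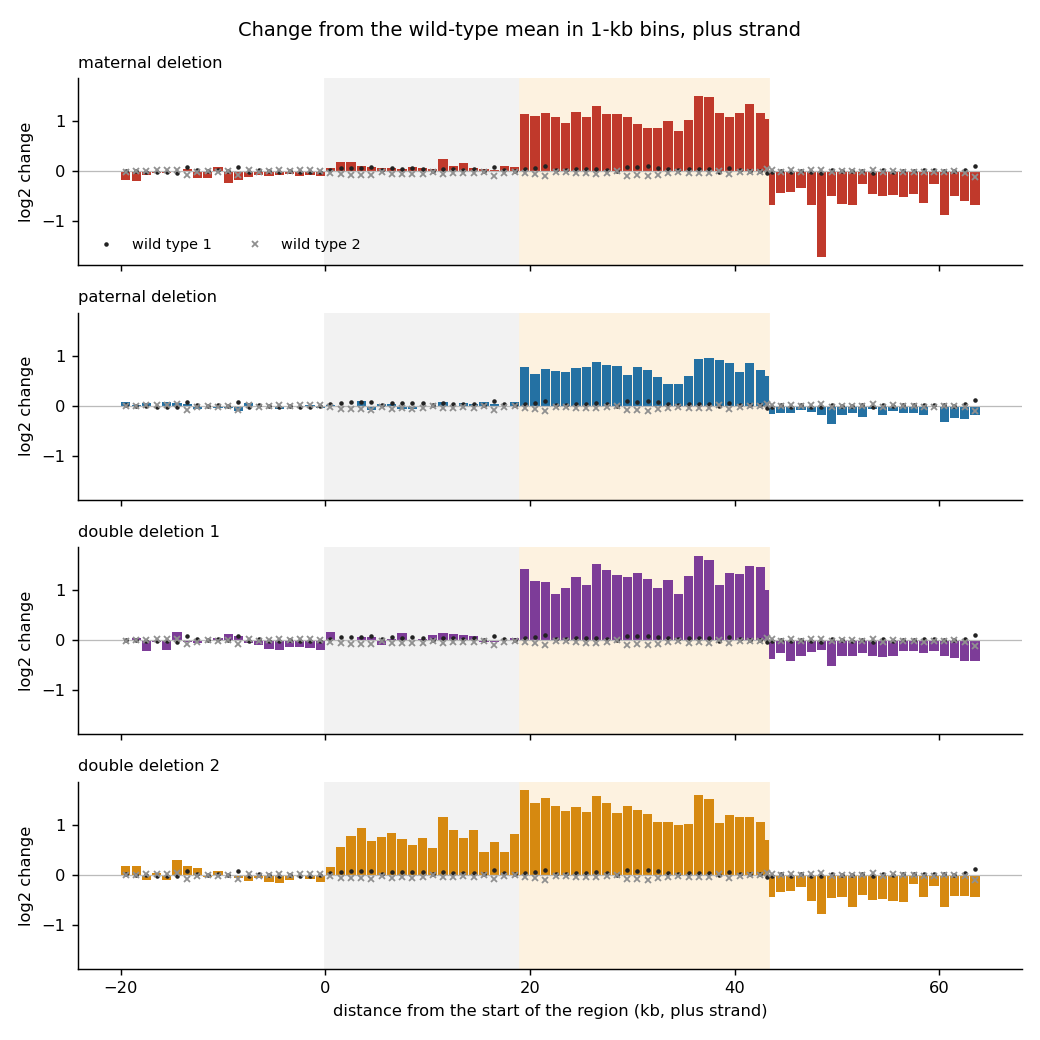
Median change from the wild-type mean (log2) of the plus-strand probes in 1-kb bins, by distance from the start of the region in kb, for the 4 deletion arrays (bars), with each wild type as points. Grey shading is the first 19 kb and orange the last 24.3 kb; bars are near 0 in the grey stretch except in double-deletion replicate 2, and 0.4 or more throughout the orange stretch in every panel, with bars below 0 past it.

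Counted over 1-kb bins, 24 of the 44 bins of the region rose in the double deletion and 0 fell (limma, adjusted p of 0.0337 to 0.0351 for those called), where 10.8% of all 3525 tested bins rose, 3.15% fell and 13.9% changed either way. All 24 lie among the 25 bins past the step. The remaining one, chr7:66505532-66506531, differed by 0.98 (adjusted p = 0.0512). None of the 19 bins before the step was called, nor had any an unadjusted p under 0.05. Their differences ran from 0.12 to 0.59, and those of the 25 bins past it from 0.74 to 1.58. The median difference of the region's bins was 1, against -0.06 over all bins. The calls need both wild types: without either one 0 bins were called in limma, with 24 at an unadjusted p under 0.05. They also depend on how the replicates enter: 43 bins were called without double-deletion replicate 1 or with the replicates as separate groups, and 25 without replicate 2. In these fits each double-deletion arm is 1 array, assumed to vary like the other groups, and the spread comes from the wild types alone. On the scale of outside probes well above background 0 were called, with 25 at an unadjusted p under 0.05. Relative to the region's own median 1 bin was higher and 16 were lower, which compares the bins with each other.

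The 5 bins with the largest rise began 19, 26, 27, 36 and 37 kb from the start, all past the step. The bin at chr7:66519532-66520531 had 1.85 and 1.77 in the double deletions, against 0.28 and 0.17 in wild type, a rise of 1.58 (SE 0.08, limma, adjusted p = 0.0337). Its level was 1.62 in the maternal deletion and 1.20 in the paternal deletion, 1.40 and 0.98 above the wild-type mean, the widest gap of the 44 bins on both arrays. The bin that opens the last stretch, chr7:66502532-66503531, had 2.53 and 2.83 against 1.15 and 1.09, a rise of 1.56 (SE 0.13). The bins at chr7:66509532-66510531, chr7:66520532-66521531 and chr7:66510532-66511531 rose by 1.52, 1.37 and 1.34. No bin fell, so none is named for a decrease. The first bin of the region, which begins at its lower border, had 2.60 and 2.56 in the double deletions, against 2.46 and 2.45 in wild type (difference 0.12, adjusted p = 0.296). The last bin, which ends at the upper border, had 0.53 and 0.37 against -0.50 and -0.41, a rise of 0.91 (adjusted p = 0.0337).

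Set against the background of each array, 42 of 44 bins lay above both wild types in the maternal deletion, where 23.8% of all bins did. It was 35 in the paternal deletion (32.9% of all bins), 37 in double-deletion replicate 1 (27.7%) and 44 in replicate 2 (44.5%). Past the step, all 25 bins did so on each of these arrays. Before it, the counts were 17, 10, 12 and 19 of 19.

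The levels are given by block only to compare arrays on the same probes. The median over successive blocks of 11 kb in wild type was 1.31 and 1.23 in the first, 0.84 and 0.85 in the second, 0.88 and 0.85 in the third and -0.05 and -0.03 in the last, which is shorter. In the maternal deletion the last block stood at 1.43 and in the paternal deletion at 0.94. The plot of levels along the region shows the mutant curves parting from wild type at the step.

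**Figure D3:**
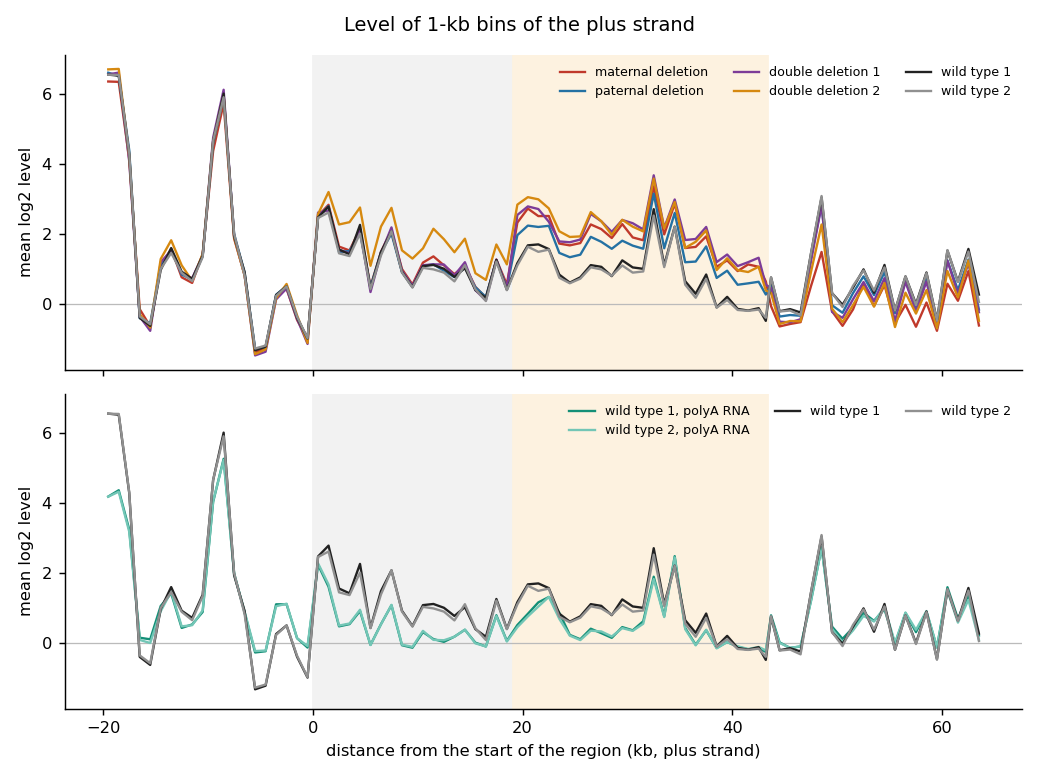
Mean log2 level of the plus-strand probes in 1-kb bins, by distance from the start of the region in kb, for the 4 deletion arrays with both wild types (top) and for both polyA arrays with both wild types (bottom), with the same shading as in the plot of changes. The deletion curves part from wild type at the step, 19 kb from the start, and the polyA curves run under wild-type total RNA over most of the shaded span.

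At the borders, the values that chose the region are given as a description. Over the 5 probes just inside the upper border the median change from wild type was 1.22 in the maternal deletion, 0.71 in the paternal deletion, and 1.03 and 0.70 in the double deletions. Over the 5 probes just outside it, the changes were -0.38, -0.20, -0.44 and -0.38. Over the 20 kb past it the mean level was 0.01 in the maternal deletion, 0.49 in the paternal deletion, and 0.37 and 0.22 in the double deletions, against 0.67 and 0.66 in wild type. At the lower border the median change over the 5 probes on either side was at most 0.19 in size on every deletion array. Single probes there differed more: the one at chr7:66483595-66483654 was 1.01 above wild type in the maternal deletion. The 20 kb below this border averaged 1.13, 1.20, 1.16 and 1.21 in the same mutants, against 1.20 and 1.19 in wild type.

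On top of the continuous signal stood local peaks. A peak was a run of at least 2 probes whose running median over 3 probes was at least 1.5 above the median of the region in wild-type total RNA, which was 0.69, and the floor comprised the 554 probes over 300 bp from any peak. This gave 14 peaks with 66 probes, 5 in the first stretch and 9 in the last. Without an annotation of mm9 they cannot be called exons. Of the peak probes 68.2% were custom, against 48.4% of the floor probes. The minus-strand partners of the brightest peaks were bright as well: in total RNA of the wild types they had 5.67 and 5.73 over peak 4, 4.57 and 4.70 over peak 13, and 4.18 and 4.18 over peak 5. What raises both strands at these probes was not tested.

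Over the whole region the peaks stood out less in the deletions, and the floor of the last stretch was further above wild type than the peaks there. Peaks exceeded the floor by 3.09 in the maternal deletion, 3.24 in the paternal deletion, and 3.12 and 2.95 in the double deletions, against 3.56 and 3.48 in wild type. All 4 mutants lay below both wild types. The peaks were chosen on these same wild-type arrays, which favours a larger gap there, so the comparison is a description. Over the whole region the double deletions averaged 3.03 ± 0.12 and the wild types 3.52 ± 0.06 (SD, n = 2 each). The difference was -0.49 (exact permutation test, two-sided p = 0.333, the smallest that 2 against 2 allows). Within the last stretch, the floor averaged 1.53 in the maternal deletion, 1.17 in the paternal deletion, and 1.69 and 1.67 in the double deletions, against 0.42 and 0.37 in wild type. The peaks there averaged 4.79, 4.65, 4.95 and 4.98 in these arrays, against 4.40 and 4.28 in wild type. In the last stretch the 129 probes with a wild-type level of 0 to 1 had median changes of 1.33 in the maternal deletion, 0.89 in the paternal deletion, and 1.57 and 1.52 in the double deletions. The 17 probes over 4 had -0.10, 0, 0.02 and 0.22. On the log2 scale a given amount of added signal moves a bright probe less than a dim one.

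**Figure D4:**
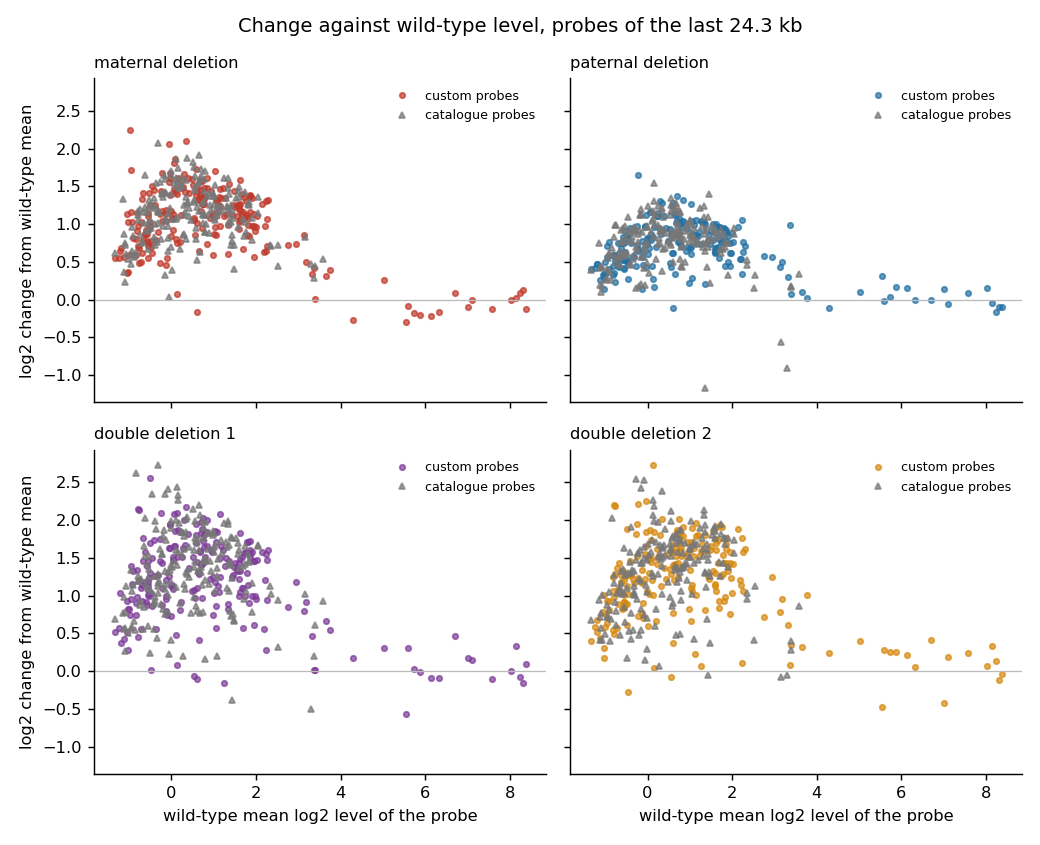
Change from the wild-type mean (log2) against the wild-type mean log2 level, for each of the 423 probes of the last 24.3 kb, 1 panel per deletion array, with custom probes as circles and catalogue probes as triangles. The changes are largest for probes with levels of 0 to 2 and lie around 0 for the 17 probes over 4, which are all custom.

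The 12 highest peaks differed in this. Peak 4 (chr7:66490745-66490914), the highest, had 7.05 in the maternal deletion, 7.04 in the paternal deletion, and 7.27 and 7.14 in the double deletions, against 7.22 and 7.15 in wild type. Peak 13 (chr7:66517695-66518194) had 6.60, 6.48, and 6.58 and 6.64, against 6.46 and 6.39. Both were thus close to wild type in every mutant, the first before and the second past the step. Peak 5 (chr7:66500865-66501144), before the step, had 6.06, 6.05, and 6.34 and 6.03, against 6.31 and 6.16.

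The lower peaks past the step lay above wild type in every mutant, by differing amounts. Peak 12 (chr7:66515935-66516654, 8 probes) had 5 in the maternal deletion, 4.90 in the paternal deletion, and 5.22 and 5.29 in the double deletions, against 4.57 and 4.42 in wild type. Peak 6 (chr7:66503923-66504004) had 3.47, 3.19, and 3.80 and 3.92, against 2.77 and 2.71, which puts the double deletions 1.12 above wild type. Peaks 7, 8, 10 and 11, at wild-type means of 3.93 to 4.51, were 0.31 to 0.51 above wild type in the maternal deletion and 0.45 to 0.77 above it in the double deletions. Peak 14, with a wild-type mean of 2.38, was 0.55 and 0.29 above it. Before the step, peak 1 (chr7:66483925-66485194, 21 probes), which begins 393 bp from the start of the region, had 3.74, 3.76, and 3.70 and 3.90, against 3.71 and 3.58. Peak 3 (chr7:66487358-66487834) had 3.47, 3.43, and 3.62 and 4.01, against 3.57 and 3.44, with double-deletion replicate 2 as the only array clearly off.

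On the outside-locus scale the region was lower in polyA RNA of the wild types than in total RNA of the same samples. The region averaged 0.44 and 0.43 in polyA RNA, against 0.98 and 0.91 in total RNA. Both its peaks and its floor were lower. The peaks averaged 3.27 and 3.25, against 4.16 and 4.03, and the floor 0.14 and 0.13, against 0.60 and 0.55. Over the 771 tested probes the means were 0.44 ± 0.01 and 0.96 ± 0.05 (SD, n = 2 each), a fall of 0.52 on the log2 scale (SE 0.05, limma, adjusted p = 0.00141). The level in wild type also served to select the lower border. The polyA tests of the region and of its bins are therefore not independent of that choice. The sign of a regional value depends on the scale: on the 75th percentile of all probes the difference was 0.82, and on the median of outside probes it was -1.34. In 1-kb bins, 36 of 44 fell and 2 rose (limma), where 40.7% of all 3519 tested bins fell, 26.6% rose and 67.3% changed either way. On the scale of all probes, 43 rose and 0 fell, also at an unadjusted p under 0.05. Relative to the region's own median, 23 bins were higher and 8 lower.

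The order of bins does not depend on a scale factor per array. All 19 bins of the first stretch fell on the outside-locus scale, by 0.27 to 1.21, with a median difference of -0.73. In the last stretch 17 of 25 fell and 2 rose, with a median of -0.38. Both stretches averaged nearly the same in polyA RNA, 0.44 and 0.43, while total RNA averaged 1.14 in the first and 0.79 in the last. A probe at background in polyA RNA gives only an upper bound, so bins dim in total RNA had little room to fall. How much of the contrast between the stretches comes from this was not tested. The 5 bins with the largest fall all lay in the first 9 kb. The bin at chr7:66487532-66488531 had 0.90 and 0.94 in polyA RNA, against 2.25 and 2.00 in total RNA, a difference of -1.21 (SE 0.10, adjusted p = 0.000917). The bins at chr7:66484532-66485531, chr7:66485532-66486531, chr7:66490532-66491531 and chr7:66491532-66492531 differed by -1.06, -1.02, -0.99 and -0.97. The first bin of the region differed less, with 2.37 and 2.41 in polyA RNA against 2.67 and 2.65 in total RNA (difference -0.27, adjusted p = 0.00841).

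The bin at chr7:66517532-66518531, which holds all of peak 13, rose by 0.26 in polyA RNA, with 2.47 and 2.44 against 2.20 and 2.20 (SE 0.05, limma, adjusted p = 0.00928). Of its 13 probes 5 were well above background on both polyA arrays. The last bin also rose, by 0.21 (adjusted p = 0.0335), but 7 of its 8 probes were well above background on neither polyA array. The bins at chr7:66524532-66525531, chr7:66525532-66526531 and chr7:66523532-66524531 had differences of 0.02, 0.02 and 0 and adjusted p of 0.769, 0.794 and 0.963. On probes well above background on all 4 arrays, 40 of 42 bins fell and 0 rose, also at an unadjusted p under 0.05.

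Peak 13 was the only one of the 14 peaks at least as high in polyA RNA as in total RNA on the outside-locus scale, with 6.83 and 6.64 against 6.46 and 6.39. That number was 3 on the scale of outside probes well above background and 12 on the scale of all probes. It was 6 relative to the region's own median and 0 on the median of outside probes. Each of these scales moves all peaks of an array by the same amount. The order of the peaks, with peak 13 highest, is therefore the same on every one by construction. The minus-strand probes over peak 13 were also higher, with 5.52 and 5.46 in polyA RNA against 4.57 and 4.70 in total RNA. Peak 8 (chr7:66506023-66506094) came next, with 4.04 and 4.17 against 4.28 and 4.30, and peak 6 had 2.45 and 2.55 against 2.77 and 2.71. Peak 4 had 6.80 and 6.75 against 7.22 and 7.15, a difference of -0.41. At the other end, peak 10 (chr7:66513185-66513354) had 2.76 and 2.55 against 4.50 and 4.51, a difference of -1.85, and peak 3 had 2.11 and 2.08 against 3.57 and 3.44. The peaks thus differed widely in how far their level in polyA RNA lay from that in total RNA. Peaks exceeded the floor by 3.14 and 3.13 in polyA RNA, against 3.56 and 3.48 in total RNA (difference -0.39, exact permutation test, p = 0.333, the smallest possible). The sign of this difference turns with the background correction, to 1.29 with background-subtracted signal, and it was 0.02 on probes well above background on every array. Here too the peaks were chosen on the total RNA arrays, which favours a larger gap there.

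**Figure D5:**
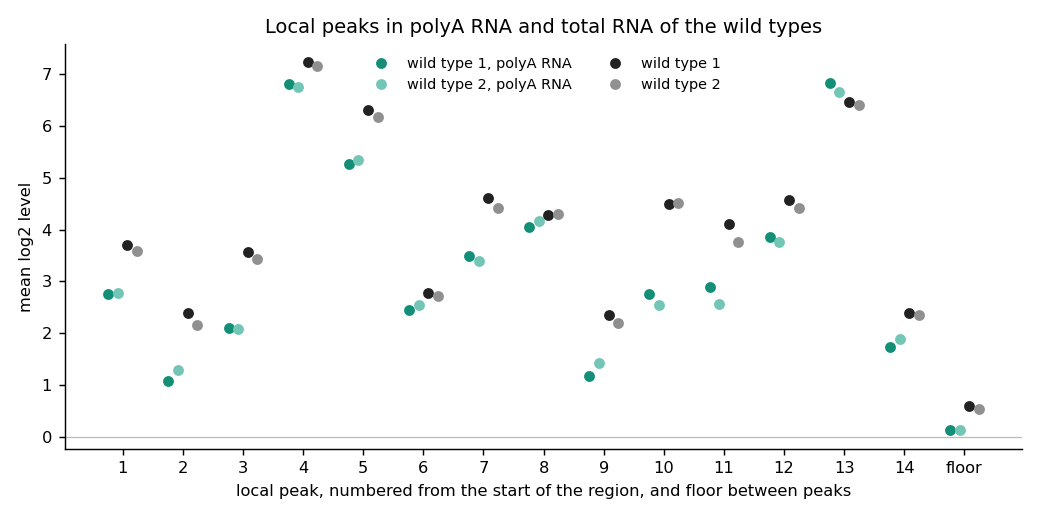
Mean log2 level of the 14 local peaks, numbered from the start of the region, and of the floor between them, on both polyA arrays and both total RNA arrays of the wild types, 1 point per array. On this scale peak 13 is the only peak with both polyA points above both total RNA points; peak 10 shows the widest gap the other way.

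Probe by probe, 173 of the 777 (22.3%) were higher in both polyA arrays than in both total RNA arrays, where 48.6% of all locus probes were, and 157 of these had a wild-type level under 0, where polyA levels sit at background. Only 17 also exceeded 0.5 in both polyA arrays. The longest run of them with its close neighbour, picked after the values were seen, spanned chr7:66506475-66506754, 22.9 kb from the start, where 6 of 7 probes qualified. It averaged 1.67 and 1.51 in polyA RNA, against 1.14 and 1.21 in total RNA. It was under the height set for a peak. In the mutants it stood at 2.21 in the maternal deletion, 2.08 in the paternal deletion, and 1.92 and 2.53 in the double deletions, all above wild type.

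Over most of the region the opposite strand was lower than in wild type on the deletion arrays. The last 3 kb before the upper border (picked after the values were seen) are an exception in the paternal deletion, where the minus strand averaged 1.58, against 1.01 and 1.07 in wild type, and 57 of 59 probes lay above both wild types. The series description states that Ube3a-ATS is depleted in the double deletion. Over the last stretch the minus strand had a median change of -0.38 in the maternal deletion, -0.79 in the paternal deletion, and -1.94 and -1.53 in the double deletions. Over the first stretch the median changes were -0.28, -0.53, -1.12 and -0.95 in the same arrays. The minus strand had no change of sign at the plus-strand step. Its level past the step averaged 0.87 in the maternal deletion, 0.62 in the paternal deletion, and -0.59 and -0.20 in the double deletions, against 1.19 and 1.26 in wild type. The part that the minus strand has in the plus-strand values was not tested.

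The bins elsewhere on the tiled locus whose 8 values followed the mean of the region most closely were all on the plus strand, in the flank beyond the Snrpn end of the deleted span. The 5 closest lay between 67353532 and 67625531, with Pearson correlations of 0.970 to 0.977 over the 8 arrays, which share array scale and the gap between polyA and total RNA. The closest, chr7:67624532-67625531, had 2.65 in the maternal deletion, 2.37 in the paternal deletion, 2.84 and 2.72 in the double deletions, and 1.35 and 1.31 in polyA RNA, against 2.03 and 1.98 in wild-type total RNA.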

How the data were processed

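The authors deposited 1 scanner file per array of a custom strand-specific Agilent tiling array, with spot intensity on a linear scale and no normalization between arrays. Random hexamers and Cy5 gave labelled first-strand cDNA, per the labels' protocols, from either 750 ng polyA RNA (purified out of 30 µg) or 15 µg total RNA. Per the file headers, the files come from Agilent Feature Extraction 10.7.3.1 on build mm9, while the submitters' processing notes name version 10.9. All 8 arrays lay on 1 slide with 1 scan, so no batch could be fitted. The scanner's marks for outlier spots, saturation and spots well above background were used as deposited.

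From the deposited red median intensity and local background, values were background-corrected with normexp and an offset of 50 (limma 3.58.1 in R 4.3.3), logged to base 2 as log2 values and reduced by the array's 75th percentile of the 3338 probes outside chr7:65790585-67800765. Replicate spots were averaged by probe. Tested probes had the well-above-background mark throughout 1 or more groups, and 1-kb bins needed at least 3 such probes. Bins of both strands, with the mean of the region as 1 further feature, were fitted with lmFit and eBayes (two-sided, Benjamini-Hochberg, threshold 0.05), the 6 total RNA arrays as 4 groups and the 4 wild-type arrays apart. The fit was tested on simulated data. Changes are given against the wild-type mean.

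The members, the lists and the tests were chosen with earlier results of these data known. Named are the 12 highest local peaks, the first and last bin, the 5 bins with the largest rise and fall in each tested comparison, 5 probes on each side of each border and the 5 bins most alike. The same-numbered polyA and total RNA samples share their RNA per the series description; the correlation of their deviations from the group means over 3519 bins was 0.025. Alternatives covered scale, normalization, background correction, filter, peak height, grouping, the replicate block and left-out samples; spot-based scaling, either probe design alone, the region's own median as scale, the peaks under other scales and the division into 2 stretches were added after seeing the data. The authors' series matrix was matched to 18407 probes, none outside the locus, so the planned scale could not be set on it and it was not used for values.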

Additional observations from a re-analysis of the deposited data

How the results depend on the processing

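Bins called in the double deletion (24) numbered 0 on the scale of outside probes well above background, 43 with the replicates as separate groups and 0 to 43 with 1 array left out, and stayed within 1.5 times under the others; over single probes 283 of 775 were called (9.48% of all probes), and 585 of 771 in polyA RNA (72.8% of all). The regional rise of 0.84 missed the threshold at 0.75 on that scale, at 0.84 on probes well above background on every array and at 0.81 on custom probes (adjusted p in limma 0.0504, 0.0567 and 0.0542, range over all alternatives 3.37e-05 to 0.403), ran from 0.69 to 0.98 with 1 array left out, and was 1.31 on the 75th percentile of all probes. In polyA RNA, 25 bins were called with all 8 arrays in 1 fit, and the regional difference of -0.52 turned to 0.82 on the 75th percentile of all probes and missed the threshold at -0.15 on outside probes well above background. It was -1.34 on the outside median, -0.82 with background-subtracted signal, -0.84 on probes well above background on every array and -0.28 with quantile normalization, all past the threshold. The split of higher against lower bins, 2 and 36, became 43 and 0 on all probes, 0 and 44 on the outside median, 9 and 22 on outside probes well above background and 23 and 8 on the region's own median; the last gave 1 and 16 in the double deletion. With the replicate block, 38 bins and -0.52 (adjusted p 0.00205) were found, and all 38 were the bins called without it, in the same direction. The maternal change of 0.62 became 0.52 with quantile normalization, 0.67 without background correction and 0.78 with background-subtracted signal. The paternal change of 0.40 became 1.65 on all probes, 1.23 with quantile normalization and 0.54 with background-subtracted signal. On all probes and with quantile normalization it exceeded the maternal change, and also the double-deletion rise of 1.31 and 1.08. Peaks minus floor kept their sign in all mutants: the maternal difference of -0.44 moved to -0.36 with quantile normalization, -0.64 with background-subtracted signal and on catalogue probes, -0.62 on custom probes, and -0.24 or -0.61 with peaks set at 1 or 2. The paternal -0.29 moved to -0.43, -0.39, -0.41, -0.18 and -0.38 under the last 5 of these in turn. The double -0.49 moved to -0.36 (quantile), -0.72 (subtracted), -0.73 (custom), and -0.24 and -0.70 (peaks at 1 and 2). In polyA RNA the -0.39 turned to 1.04 (quantile), 1.29 (subtracted) and 0.02 (probes well above background), and moved to -0.17 without correction, -0.58 on catalogue and -0.29 on custom probes, -0.60 and -0.33 with peaks at 1 and 2, and -0.46 to -0.30 with 1 array left out. Where no construction of the setting shows it, the cause was not tested. The authors' series matrix values were not run, since no matched probe lay outside the locus. Dim probes limit the polyA arrays.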

Other observations

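In the paternal deletion the minus strand of the last 3 kb before the upper border lay above wild type, as given above. Over the 364 minus-strand probes between the step and that place it averaged 0.47, against 1.22 and 1.3 in the wild types. The maternal deletion averaged 0.73 in the last 3 kb and the double deletions -0.90 and -0.38, all below wild type.

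The 37 probes of the region with a wild-type level over 4 comprised 33 custom and 4 catalogue probes, although both designs have similar numbers in the region. Their median level in wild type was 5.65 in the first stretch (20 probes) and 6.69 in the last (17 probes), with medians of 4.03 and 4.27 for their minus-strand partners. Of the 37, 9 were at or above total RNA in polyA RNA.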
